A study of Mus musculus with 6 samples.

Results

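The genes described here are 44 autophagy and lysosome genes, chosen by symbol as the rows of the deposited mouse gene count table whose name is on a list of induction, membrane, conjugation, cargo, transcription factor and lysosome genes. They are 44 of the 54532 gene rows in the table, and all 44 were among the 14774 genes with enough counts to be tested. RNA from the left ventricle was sequenced from 3 TG and 3 NTG mice, 1 poly-A selected library per heart, to compare hearts with and without a HINT2 transgene under pressure overload. TG mice carry the genotype label HINT2CTG-Myh6Cre, in which human HINT2 stands behind the ubiquitous CAG promoter and is switched on by tamoxifen through a Cre that the Myh6 promoter drives in cardiomyocytes. NTG mice are non-transgenic, with the genotype label C57BL/6J. All were male, 8 to 10 weeks old at surgery, and both groups received aortic banding (AB), a tie around the aorta that raises the load on the left ventricle, 4 weeks before the hearts were taken. Whether NTG mice carried Cre or received tamoxifen is not given in the sources used here, so the transgene, the Cre and the drug cannot be told apart. No unbanded heart was analysed here, so the values describe TG against NTG within banded hearts only.

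Autophagy carries cytoplasm and worn organelles to the lysosome in a double-membraned vesicle, the autophagosome. The ULK kinase complex starts it, the class III PI3K complex makes the lipid PI3P on the growing membrane, and conjugation enzymes attach small ATG8 proteins (LC3 and GABARAP) to that membrane, where cargo receptors dock. The vesicle then fuses with lysosomes, whose cathepsin proteases digest the content, and the transcription factors TFEB and TFE3 switch on many autophagy and lysosome genes. In cardiomyocytes, which hardly divide, the pathway is known for renewing mitochondria and proteins, and loss of LAMP2 causes a cardiomyopathy with stalled autophagosomes.

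TFEB and TFE3 bind E-box sequences around the core CACGTG, so stretches that hold it are shown for Lamp1, Ctsd and Mcoln1 of the lysosome and for Atg3. The sequences were read from RefSeq promoters on GRCm38.p6, which span 250 bases before to 50 after each start, and 37 of the 44 members had one. Rb1cc1, Becn1, Pik3c3, Atg12, Atg16l1, Map1lc3a and Ctsb did not. The lines run 5′ to 3′ on the gene's strand, and capitals mark CACGTG, which reads the same on both strands. Lamp1 has 4 copies in the 80 bases before its start (chr8:13159081-13159160, plus strand). The Ctsd line (chr7:142387908-142387937, minus strand) and the Mcoln1 line (chr8:3500462-3500491, plus strand) each hold 1 copy within the longer form TCACGTGA. Both lie before the RefSeq start but inside the first exon, in the 5′ untranslated region, of the longer GENCODE transcript. The Atg3 line (chr16:45158709-45158784, plus strand) lies before the gene and holds 2 copies.
Lamp1: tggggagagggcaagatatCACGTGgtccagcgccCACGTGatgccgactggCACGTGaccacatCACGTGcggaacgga
Ctsd: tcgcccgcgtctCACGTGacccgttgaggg
Mcoln1: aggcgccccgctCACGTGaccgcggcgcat
Atg3: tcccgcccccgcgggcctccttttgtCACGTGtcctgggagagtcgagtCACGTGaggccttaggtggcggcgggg

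CACGTG was found in 8 of the 37 members with a promoter, or 21.6%, against 2187 of 27025 genes in the RefSeq table, or 8.09%. In the other pathway lists read below, the share of genes ran from 23.8% to 33.3%. The 8 members were Lamp1, Ctsd, Ctsl and Mcoln1, which are 4 of the 6 lysosome members with a promoter, and Atg3, Atg5, Atg7 and Atg14 among the other 31. The longer TCACGTGA was found in Ctsd, Mcoln1 and Atg3, and in 1.12% of all genes of the table. For Ctsl, Atg14 and Atg7 the RefSeq start lies 370, 2215 and 27999 bases inside the gene as deposited, so that window is not at the deposited start. These are matches of letters and not measured binding sites.

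The targeted gene was read first. Reads of the human transgene reach the count of mouse Hint2 where they match its sequence, and TG 1, TG 2 and TG 3 held 793, 828 and 859 of its counts. It had 545 and 559 counts in NTG 2 and NTG 3, but 12 in the library labelled NTG 1, which goes against its group. Libraries held 14863568 to 17581220 counts on genes, and the members took 0.483% to 0.618% of them. NTG 2 stood apart by high neutrophil, fibroblast and macrophage markers and by the lowest cardiomyocyte markers. The macrophage markers summed to 1892 CPM (a gene's counts relative to the TMM-scaled size of the library) there and to 1036 and 1098 CPM in the other NTG hearts, and the cardiomyocyte markers to 21119 CPM against 34385 and 28441 CPM. S100a8 was 77.0 CPM there and 1.71 to 8.68 CPM in the other 5 libraries. Results that rest on NTG 1 or NTG 2 are therefore also given without them. Nothing in the sources gives a batch. The p-values of the fits rest on the spread between these hearts, shared in part across genes.

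Within banded hearts, 5 of the 7 lysosome members had lower values in TG, while the genes that build the autophagosome had values on both sides of NTG. The cathepsin genes Ctsb, Ctsl and Ctsd, the membrane protein genes Lamp1 and Lamp2, the ATG8 gene Gabarapl1, the protease gene Atg4a and the transcription factor gene Tfe3 were lower in every TG heart than in any NTG heart. Atg4d, a protease gene that trims ATG8 proteins, and the cargo receptor gene Calcoco1 were higher in every TG heart. Outside the lysosome role, 3 of 37 members were lower (8.11%) and 2 higher (5.41%) without overlap, below the 12.3% and 11.2% of all genes. Map1lc3a, which encodes an LC3 protein, had the second largest fold change upward. By edgeR's quasi-likelihood test, none of these differences passed adjustment over all genes.

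Of the 44 members, 0 were called in either direction, a call being an adjusted p below 0.05 together with a log2 fold change beyond ±0.5, against 0 of all 14774 genes (0% in each direction, edgeR). The log2 fold changes of the members, TG over NTG, ran from −0.56 to 0.58 with a median of −0.018, where the median of all genes tested was −0.0081. They were above 0 for 20 members and below 0 for 24. At an unadjusted p under 0.05, 3 members were higher, where 8.83% of all genes were, and 6 were lower, where 9.76% of all genes were. The groups did not overlap for 2 members that were higher (11.2% of all genes) and 8 that were lower (12.3% of all genes). Over the 44 members these are 4.55% and 18.2%. DESeq2 called 1 member, Ctsb, lower and none higher, where it called 1.54% of all genes higher and 2.4% lower. Without NTG 1, edgeR called Ctsb as 1 member lower, against 2.68% of all genes called higher and 2.9% lower, and 5 members were higher and 6 lower at an unadjusted p under 0.05, against 13.8% and 13.4% of all genes. Without NTG 2, the counts at an unadjusted p under 0.05 were 2 higher and 3 lower, against 5.09% and 5.39% of all genes.

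**Figure D1:**
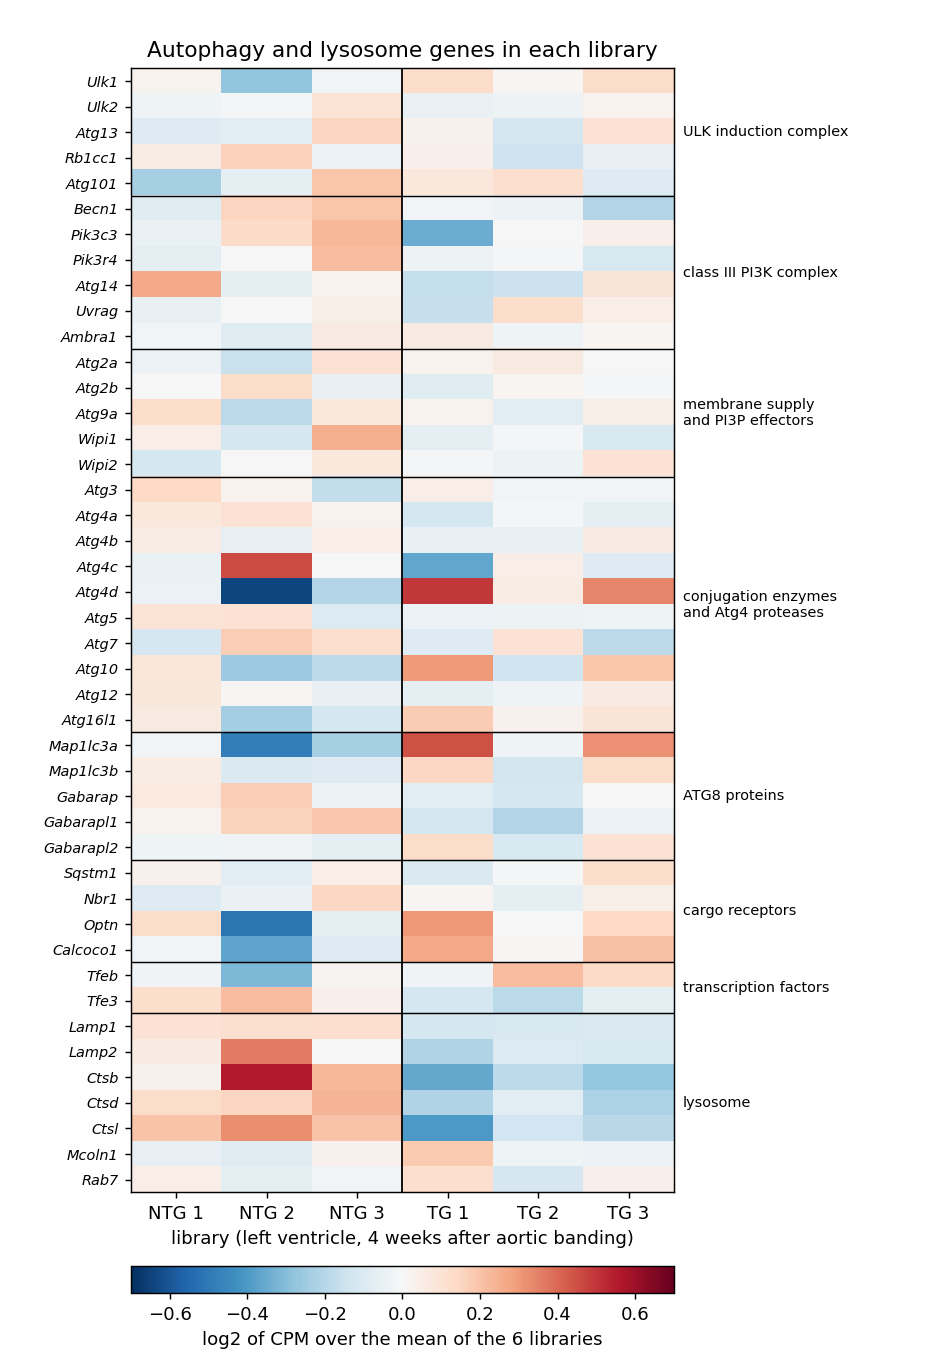
Heat map of the 44 members (rows, by role) in the 6 libraries (columns). Colour is log2 CPM minus the gene's mean over the libraries, red above and blue below. The lysosome block shows Lamp1, Lamp2, Ctsb, Ctsd and Ctsl above their mean in the NTG libraries and below it in all 3 TG libraries, except Lamp2 in NTG 3, which lies at its mean, while the other blocks show no such shared division.

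**Figure D2:**
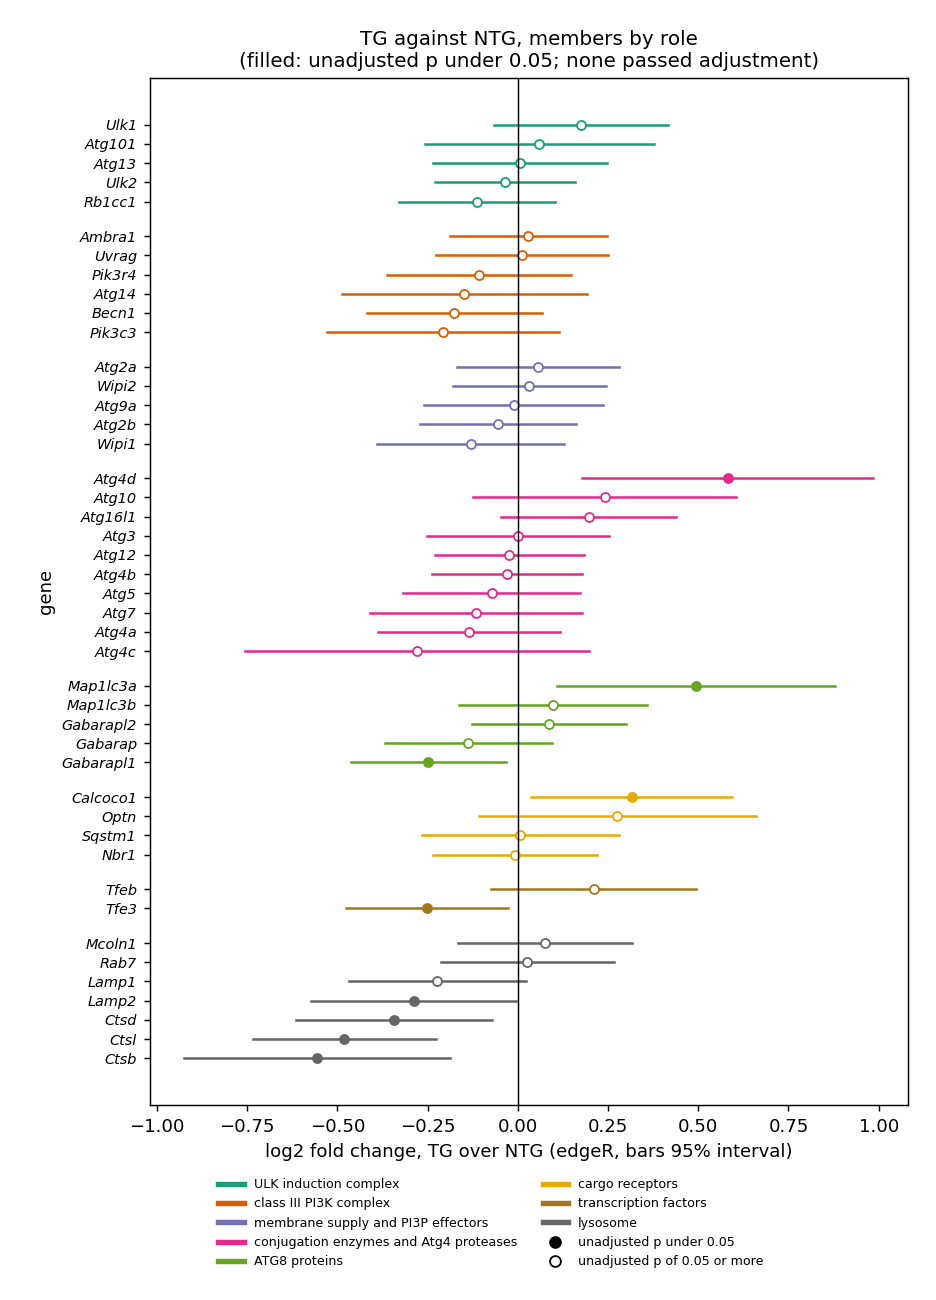
Log2 fold change of TG over NTG for each member (points) with its 95% interval (bars, edgeR), coloured by role and ordered within each role. Filled points mark an unadjusted p under 0.05, which holds for 3 members above 0 and 6 below 0, and no member passed adjustment over all genes.

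The lysosome role held 7 members, of which 5 had lower values in TG, with a median log2 fold change of −0.29. At an unadjusted p under 0.05, 4 of the 7 were lower, or 57.1%, against 9.76% of all genes. Without NTG 2, 3 were lower by that rule, or 42.9%, against 5.39%. The groups did not overlap for 5 that were lower, or 71.4%, against 12.3% of all genes. Adjusted p-values of the role ran from 0.196 to 0.911 (edgeR). The median was −0.34 without NTG 1 and −0.22 without NTG 2.

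Ctsb encodes cathepsin B, a cysteine protease that is among the most abundant of the lysosome (ENSMUSG00000021939, chr14:63122462-63145923, plus strand, GRCm38 here and for the positions that follow). Ctsb was 708, 1019 and 814 CPM in NTG 1, NTG 2 and NTG 3, and 542, 611 and 574 CPM in TG 1, TG 2 and TG 3. All 3 TG hearts lay below the lowest NTG heart, and the NTG hearts were spread further apart than the TG hearts. edgeR put the log2 fold change at −0.56 (standard error 0.16, adjusted p = 0.196), and at −0.40 without NTG 2, the highest library. Ctsb was the one member called under DESeq2, at an adjusted p of 0.0219, and edgeR called it without NTG 1 at a log2 fold change of −0.67 and an adjusted p of 0.0447. The DESeq2 call was lost when NTG 2, NTG 3, TG 1 or TG 3 was left out, with adjusted p-values of 0.0946 to 0.228. Over all alternatives its adjusted p ran from 0.000181 to 0.456. Ctsb overlaps Fdft1 on the other strand, which had 2189 counts to 71189 for Ctsb over the 6 libraries.

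Ctsl encodes cathepsin L, another cysteine protease of the lysosome (ENSMUSG00000021477, chr13:64359337-64370890, minus strand). Ctsl was 251, 274 and 251 CPM in the NTG hearts and 166, 199.5 and 191 CPM in the TG hearts. The NTG hearts lay close together and no TG heart reached them. It had a log2 fold change of −0.48 (standard error 0.110), with the smallest unadjusted p of the 44 members at 0.00227. Its adjusted p was 0.196 in edgeR and 0.0063 in DESeq2, where the fold change stayed under the size set for a call. Leaving out each library in turn gave log2 fold changes from −0.54 to −0.41.

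Ctsd encodes cathepsin D, the aspartic protease of the lysosome (ENSMUSG00000007891, chr7:142375911-142388038, minus strand). Ctsd was 748, 759 and 809 CPM in the NTG hearts and 592, 647 and 587 CPM in the TG hearts, with no overlap. Its log2 fold change was −0.34 (standard error 0.119), with an adjusted p of 0.215 in edgeR and 0.0273 in DESeq2. With Ctsb and Ctsl it makes 3 members under an adjusted p of 0.05 at any fold size in DESeq2, against 2.49% of all genes that were lower by that rule. The 3 cathepsins summed to 1707, 2051 and 1874 CPM in the NTG hearts and to 1299, 1458 and 1352 CPM in the TG hearts, a ratio of 0.730. The ratio was 0.698 without NTG 1 and 0.765 without NTG 2.

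Lamp1 and Lamp2 encode the main glycoproteins of the lysosomal membrane, and LAMP2 also takes part in fusion with autophagosomes. Lamp1 was 540, 545 and 547 CPM in the NTG hearts and 463, 466 and 469 CPM in the TG hearts. It was the most even of the lysosome members within each group, and the gap between the groups was far wider than the range within either. Lamp1 had a log2 fold change of −0.22 (standard error 0.106, edgeR adjusted p = 0.30), where edgeR's standard error rests on spread shared across genes and not on Lamp1 alone. Lamp2 (ENSMUSG00000016534, chrX:38401357-38456454, minus strand) was 235, 292 and 226 CPM in the NTG hearts and 196, 212 and 209 CPM in the TG hearts. The groups did not overlap, but NTG 2 lay apart from the other NTG hearts. For Lamp2 the log2 fold change was −0.29 (standard error 0.123, edgeR adjusted p = 0.262) and −0.17 without NTG 2.

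The remaining lysosome members were Mcoln1, the gene of a calcium channel of the lysosomal membrane, and Rab7, the gene of the small GTPase that steers late endosomes and lysosomes to fusion. Mcoln1 was 25.5, 25.1 and 27.1 CPM in NTG and 30.1, 26.0 and 25.9 CPM in TG, and Rab7 was 222 to 240 CPM in NTG and 214 to 252 CPM in TG. Both overlapped between groups. Their log2 fold changes were 0.08 (95% interval −0.17 to 0.32) and 0.03 (95% interval −0.21 to 0.27), so a difference as large as that of Ctsb lies outside both intervals. Rab7 has a pseudogene, Rab7-ps1, with 592 counts against 22760, and the counting could have divided reads between them.

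**Figure D3:**
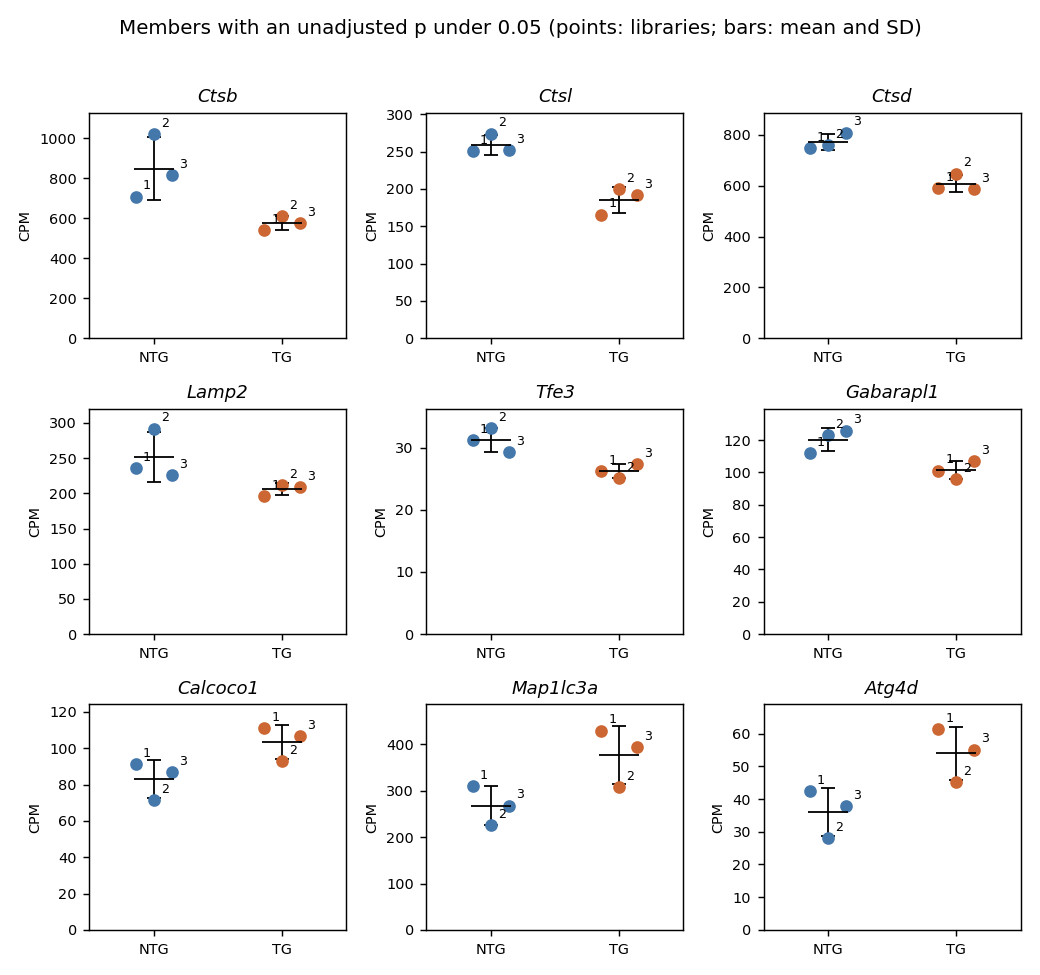
CPM of the 9 members with an unadjusted p under 0.05, 1 panel per gene, in NTG (blue) and TG (orange) hearts. Points are libraries with their replicate number, lines are means with SD (n = 3), and each vertical axis starts at 0. In 8 of the 9 panels no TG point lies in the range of the NTG points, while Map1lc3a has TG 2 just below NTG 1.

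Markers of other cell types were read beside the lysosome members, and none passed adjustment in edgeR with all 6 libraries. DESeq2 called 4 of the 7 fibroblast markers lower (Col1a1, Col1a2, Dcn and Postn), against 2.4% of all genes. It called no marker of the other lists. Without NTG 1, edgeR called 2 macrophage markers and 1 fibroblast marker lower and 1 cardiomyocyte marker higher. In that fit, 2.9% of all genes were called lower and 2.68% higher. All 10 macrophage markers (Adgre1, Csf1r, Cd68, Mrc1, Fcgr1, C1qa, C1qb, C1qc, Lyz2 and Itgam) had lower values in TG, with a median log2 fold change of −0.58. At an unadjusted p under 0.05, 4 of them were lower (40%, against 9.76% of all genes), and 2 without NTG 2 (20%, against 5.39%). Their summed level was 1036 to 1892 CPM in NTG and 774 to 1111 CPM in TG, which overlapped, and no marker was at 0 in all libraries. Without NTG 2 the macrophage median was −0.22, with 7 of 10 lower, while the lysosome role was also at −0.22 with 5 of 7 lower. The 7 fibroblast markers were all lower (median −1.12, sum 4527 to 10672 CPM in NTG and 2193 to 3845 CPM in TG), and without NTG 2 their median was −0.73 with 6 of 7 lower. Of these 7, 6 were lower at an unadjusted p under 0.05 (85.7%, against 9.76%), 5 were so without NTG 2 (71.4%, against 5.39%), and 5 did not overlap between groups (71.4%, against 12.3%). The 8 cardiomyocyte markers were all higher (median 0.43, and 0.25 without NTG 2), with sums of 21119 to 34385 CPM and 33383 to 40777 CPM. The 6 endothelial markers stood at a median of 0.02, with 3 in each direction, and the 4 neutrophil markers tested were all lower (median −3.33, and −0.97 without NTG 2). All 5 neutrophil markers summed to 9.15 to 241 CPM in NTG and 8.36 to 16.4 CPM in TG. The part of these cell types in the lysosome values was not tested, and in bulk tissue fewer cells of a type and less RNA per cell cannot be told apart.

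The ATG8 role held 5 members, the small proteins that are bound to the autophagosome membrane, and they lay on both sides of NTG (3 above and 2 below, median log2 fold change 0.09). Map1lc3a (ENSMUSG00000027602, chr2:155276297-155278073, plus strand) was 311, 226 and 268 CPM in the NTG hearts and 430, 309 and 394 CPM in the TG hearts. TG 2 lay just below NTG 1, and the other TG hearts lay above all NTG hearts. Map1lc3a had a log2 fold change of 0.49 (standard error 0.168), at an adjusted p of 0.213 in edgeR and 0.0873 in DESeq2. Without TG 2 or without NTG 1, DESeq2 called it at 0.63 and 0.62, with adjusted p-values of 0.0170 and 0.0104, where it called 1.97% and 6.06% of all genes higher. Without NTG 2, edgeR gave 0.38 at an adjusted p of 0.472.

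Gabarapl1 encodes an ATG8 protein of the GABARAP branch (ENSMUSG00000030161, chr6:129533160-129542346, plus strand), and its values went the other way. It was 112, 123 and 126 CPM in the NTG hearts and 101, 95.9 and 107 CPM in the TG hearts, without overlap. Its log2 fold change stood at −0.25 (standard error 0.0930, edgeR adjusted p = 0.227). Map1lc3b, the gene of the LC3 protein most often used to follow autophagosomes, was 205 to 228 CPM in NTG and 201 to 243 CPM in TG, with a log2 fold change of 0.10. Gabarap and Gabarapl2 were at −0.14 and 0.09 (−0.08 and 0.10 without NTG 2), and the libraries of the groups overlapped for all 3. Map1lc3b overlaps Zcchc14 on the other strand, with 9371 counts against 21555, so its count is the least certain of the 5.

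Levels of different genes were compared only per length, as CPM per kb of gene length. On that scale Map1lc3a was the highest ATG8 gene in both groups, at 227 ± 35.9 (SD, n = 3) in NTG and 320 ± 52.7 in TG. Gabarap followed at 121 ± 8.73 and 110 ± 4.68, then Gabarapl1 at 59.8 ± 3.58 and 50.4 ± 2.80. Map1lc3b, at 28.3 ± 1.68 and 30.3 ± 3.12, and Gabarapl2, at 24.3 ± 0.405 and 25.8 ± 2.26, were lowest. In NTG the order held beyond the SDs between all neighbours, while in TG Map1lc3b and Gabarapl2 lay within their SDs of each other. Map1lc3a made up 53.2%, 44.1% and 50.1% of the summed ATG8 level in the NTG hearts and 62.4%, 56.2% and 59.5% in the TG hearts. No TG share of Map1lc3a lay in the NTG range (exact permutation test, two-sided, n = 3 per group, p = 0.1, the smallest it can give, and 0.125 adjusted over the 5 genes). The shares of Gabarap, Gabarapl1 and Map1lc3b were lower without overlap, from means of 26.4%, 13.0% and 6.16% in NTG to 20.7%, 9.45% and 5.67% in TG. Shares sum to a fixed total, so a higher share of Map1lc3a lowers the others, and the levels of Gabarap and Map1lc3b themselves overlapped between groups. The summed ATG8 level was 460 ± 30.8 CPM per kb in NTG and 536 ± 62.9 in TG and overlapped between the groups (exact permutation test, two-sided, n = 3 per group, p = 0.2).

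**Figure D4:**
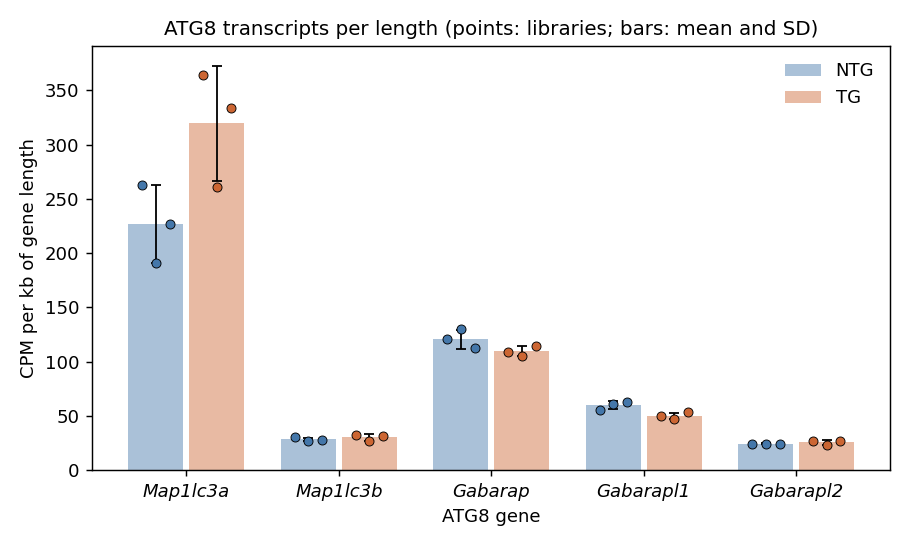
Level per length (CPM per kb of gene length) of the 5 ATG8 genes in NTG (blue) and TG (orange) hearts. Bars are means from 0, whiskers SD and points libraries (n = 3 each). Map1lc3a is the highest in both groups, at 227 in NTG and 320 in TG, and Map1lc3b and Gabarapl2 are the lowest.

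Among all members per length, Ctsd was the highest in NTG at 328 ± 13.9 CPM per kb (SD, n = 3), and Map1lc3a the highest in TG at 320 ± 52.7, where Ctsd, at 259 ± 14.3, lay within their SDs of it. Lamp1 was at 203 ± 1.23 in NTG and 174 ± 1.11 in TG, Sqstm1 at 149 ± 7.09 and 150 ± 11.7, and Ctsb at 140 ± 26.1 and 95.2 ± 5.77. Sqstm1 and Ctsb lay within their SDs of each other in NTG, but not in TG. At the low end, Atg4c was at 2.16 ± 0.439 in NTG and 1.78 ± 0.251 in TG, with Atg2b, Pik3r4 and Atg14 close to it. In both groups every ATG8 and cathepsin gene stood above every member of the ULK and class III PI3K complexes.

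The conjugation role held 10 members, which join ATG8 proteins and ATG12 to their targets or, as the Atg4 proteases do, trim ATG8 proteins and release them from the membrane. Of these, 4 had higher and 6 lower values in TG, with a median log2 fold change of −0.03 and adjusted p-values from 0.203 to 0.998 (edgeR). Atg4d (ENSMUSG00000002820, chr9:21265293-21277772, plus strand) had the largest fold change of all 44 members with all 6 libraries. It was 42.4, 27.9 and 37.8 CPM in the NTG hearts and 61.4, 45.2 and 55.1 CPM in the TG hearts. Every TG heart lay above every NTG heart, though TG 2 and NTG 1 were close. This gave a log2 fold change of 0.58 (standard error 0.174), and of 0.43 without NTG 2. The adjusted p was 0.203 in edgeR and 0.0682 in DESeq2. Atg4d overlaps Kri1 on the other strand, which had 655 counts to 4340 for Atg4d.

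The fold changes of the other Atg4 proteases lay below 0, and none had an unadjusted p under 0.05. Atg4a, at 14.8 to 15.6 CPM in NTG and 13.3 to 14.4 CPM in TG, was lower without overlap at a log2 fold change of −0.13 (unadjusted p = 0.253, edgeR). Atg4b was at −0.03 and Atg4c at −0.28, or −0.10 without NTG 2, its highest library. Atg4c, with 5.05 to 8.92 CPM, had the widest interval of the role (95% interval −0.76 to 0.20). Atg3, Atg5, Atg7, Atg10, Atg12 and Atg16l1, which encode the enzymes and partners of the conjugation itself, overlapped between groups. Their log2 fold changes lay between −0.12 for Atg7 and 0.24 for Atg10. These 2 were at −0.06 and 0.17 without NTG 2, and at −0.20 and 0.34 without NTG 1. Atg3, whose promoter is printed above, was 24.0 to 29.7 CPM in NTG and 26.6 to 27.8 CPM in TG, at 0.00 (95% interval −0.25 to 0.25).

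Cargo receptors link ubiquitin-marked proteins, mitochondria or reticulum to ATG8 proteins, and 3 of the 4 had higher values in TG (median log2 fold change 0.14). Without NTG 2, 2 of the 4 were higher and the median was 0.04. Calcoco1, a receptor for parts of the endoplasmic reticulum (ENSMUSG00000023055, chr15:102706777-102722178, minus strand), was 91.3, 71.4 and 86.8 CPM in the NTG hearts and 111, 92.8 and 107 CPM in the TG hearts. TG 2 lay just above NTG 1, and the groups did not overlap. Calcoco1 had a log2 fold change of 0.32 (standard error 0.121, edgeR adjusted p = 0.230) and 0.22 without NTG 2. Optn, a receptor for damaged mitochondria, was 106, 68.2 and 93.1 CPM in NTG and 120, 97.2 and 107 CPM in TG, with overlap. Its log2 fold change was 0.28 with NTG 2 and 0.12 without it. Sqstm1, the gene of p62, was 473 to 517 CPM in NTG and 467 to 544 CPM in TG. Its log2 fold change of 0.01 (95% interval −0.27 to 0.28) and that of Nbr1, −0.01, were near 0. The protein of Sqstm1 is itself degraded by autophagy, and these are transcript levels only.

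The transcription factor genes had fold changes of opposite sign. Tfe3 (ENSMUSG00000000134, chrX:7762560-7775202, plus strand) was 31.2, 33.2 and 29.3 CPM in the NTG hearts and 26.3, 25.1 and 27.4 CPM in the TG hearts, without overlap. Tfe3 had a log2 fold change of −0.25 (standard error 0.0977, edgeR adjusted p = 0.231). Tfeb was 27.5, 22.5 and 28.4 CPM in NTG and 27.5, 32.5 and 30.7 CPM in TG, with overlap at TG 1 and a log2 fold change of 0.21 (95% interval −0.07 to 0.49, adjusted p = 0.382), or 0.11 without NTG 2. Both factors act mainly through their movement into the nucleus, which transcript counts do not measure.

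The 3 roles that begin autophagosome formation held 16 members, and none of these reached an unadjusted p under 0.05 (8.83% of all genes higher and 9.76% lower) or separated the groups (11.2% and 12.3%). Without NTG 1, 1 member of the class III PI3K complex was lower at an unadjusted p under 0.05, where 13.4% of all genes were. In the ULK complex, which receives signals of energy and nutrient state, 3 of 5 members were higher and 2 lower, with a median log2 fold change of 0.01 and 95% intervals that together spanned −0.33 to 0.42. Without NTG 2, 2 were higher and 3 lower at a median of −0.03, and without NTG 1 the median was −0.04. Ulk1, the kinase itself (ENSMUSG00000029512), had the smallest p of the role at 89.3, 72.4 and 86.5 CPM in NTG and 95.9, 88.4 and 95.8 CPM in TG. NTG 1 lay above TG 2, with a log2 fold change of 0.17 (standard error 0.105, edgeR adjusted p = 0.390), or 0.09 without NTG 2, the lowest library. Ulk2, Atg13, Rb1cc1 and Atg101 lay between −0.11 and 0.06.

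In the class III PI3K complex, 2 of 6 members were higher and 4 lower (median −0.13, 95% intervals together −0.53 to 0.25). Becn1, the gene of the scaffold beclin (ENSMUSG00000035086), was 48.5, 57.0 and 58.7 CPM in NTG and 50.8, 50.2 and 44.5 CPM in TG. NTG 1 lay among the TG hearts, with a log2 fold change of −0.18 (standard error 0.106, edgeR adjusted p = 0.390). Without NTG 1 the groups did not overlap, at −0.26 and an adjusted p of 0.15. Pik3c3, the lipid kinase, was at −0.21 (−0.28 to −0.10 with each library left out in turn), Atg14, its guide to the autophagosome, at −0.15 (−0.05 without NTG 1) and Uvrag, its partner on endosomes, at 0.01. The remaining role held the lipid carriers Atg2a and Atg2b, the scramblase gene Atg9a and the PI3P readers Wipi1 and Wipi2. Of these 5, 2 were higher and 3 lower (median −0.01, 95% intervals together −0.39 to 0.28). Wipi1 (ENSMUSG00000041895) had the smallest p of these, at 128, 114 and 148 CPM in NTG and 118, 123 and 115 CPM in TG. All TG values of Wipi1 lay within the NTG range, with a log2 fold change of −0.13 (standard error 0.113, edgeR adjusted p = 0.549). Leaving out each library in turn gave −0.22 to −0.03.

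Taking the 37 members outside the lysosome role, 18 were higher and 19 lower, with a median log2 fold change of −0.01. At an unadjusted p under 0.05, 3 of them were higher (8.11%, against 8.83% of all genes) and 2 lower (5.41%, against 9.76%), which is close to or below the share among all genes. The 7 lysosome genes summed to 2748 to 3135 CPM in NTG and 2240 to 2377 CPM in TG, a ratio of 0.786, and held a large part of the total over all 44 members, 5597 to 5768 CPM in NTG and 5115 to 5304 CPM in TG.

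Other genes of the pathway were read from 4 lists written from recalled membership, all of whose genes were tested. The list nearest to the lysosome role, 53 other lysosomal enzymes and membrane proteins, had 48 genes with lower values in TG and 5 with higher (median log2 fold change −0.27, and −0.19 without NTG 2). Of these, 21 were lower at an unadjusted p under 0.05 (39.6%, against 9.76% of all genes) and 9 without NTG 2 (17%, against 5.39%). Without NTG 1, 30 were lower by that rule (56.6%, against 13.4%), and edgeR called 6 lower, against 2.9% of all genes. The groups did not overlap for 27 that were lower (50.9%, against 12.3%). Of the 53, DESeq2 called 1 with all 6 libraries, Ctsk, against 2.4% of all genes called lower. Ctsk, a cathepsin best known from osteoclasts, was 17.9 to 25.3 CPM in NTG and 8.58 to 15.4 CPM in TG. Its log2 fold change was −0.90 (edgeR adjusted p = 0.196, DESeq2 adjusted p = 0.0275). Asah1, which encodes an enzyme that breaks down ceramide, was at −0.57, and Psap, the gene of a precursor of activators of lipid-degrading enzymes, was higher without overlap at 0.18. The part of the macrophage and fibroblast markers given above in these values was not tested.

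The 17 V-ATPase subunits, which acidify the lysosome and so activate cathepsins, stood at a median of −0.07, with 7 higher and 10 lower. Here 1 subunit was higher at an unadjusted p under 0.05, Atp6v1d at 0.25, and 2 were lower, the accessory subunits Atp6ap1 at −0.28 and Atp6ap2 at −0.39 (edgeR adjusted p = 0.211 and 0.215). These are 5.88% and 11.8% of the subunits, near the 8.83% and 9.76% of all genes. The groups did not overlap for 2 that were higher (11.8%, against 11.2%) and 4 that were lower (23.5%, against 12.3%), and the summed level was 1154 to 1185 CPM in NTG and 1108 to 1121 CPM in TG. Without NTG 2, Atp6ap2 was at −0.24 and Atp6v1d at 0.17, both at an unadjusted p above 0.05. Of 27 other autophagy and fusion factors, 12 were higher and 15 lower, with 1 at an unadjusted p under 0.05 in each direction, or 3.7% each, below the shares of all genes. The lower one, Vps39, a subunit of the tether that joins lysosomes to vesicles carrying Rab7, was 38.1, 40.8 and 41.4 CPM in NTG and 30.6, 31.0 and 30.1 CPM in TG. Its log2 fold change was −0.39 (standard error 0.0867), and the adjusted p was 0.196 in edgeR and 0.0368 in DESeq2, under the size set for a call. Vps41 of the same tether was at −0.18, and Wdr45b, a PI3P reader, was the higher one at 0.21.

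Of 23 genes of mTORC1 and lysosomal nutrient sensing, the kinase system that holds TFEB and TFE3 in the cytoplasm, 13 were higher and 10 lower (median 0.09, or 0.14 when NTG 1 was left out). By an unadjusted p under 0.05, 2 were higher and 2 lower, or 8.7% each, near the 8.83% and 9.76% of all genes. The groups did not overlap for 5 that were higher (21.7%, against 11.2%) and 2 that were lower (8.7%, against 12.3%). Flcn, which helps mTORC1 restrain TFEB and TFE3, was 37.8, 34.6 and 33.8 CPM in NTG and 43.5, 45.6 and 43.6 CPM in TG. It did not overlap between the groups, at a log2 fold change of 0.32 (standard error 0.0882, edgeR adjusted p = 0.196). Of the Rag GTPases that bring mTORC1 to the lysosome, Rragc was at −0.28, and Rragb, at 1.15, stayed under 2 CPM in every library. Deptor, which encodes an inhibitor of mTOR and was singled out after its values were seen, was at −0.54 (unadjusted p = 0.0346, edgeR adjusted p = 0.234) with overlapping groups. Without NTG 1, Deptor was the 1 gene of the 23 that edgeR called (−0.77, adjusted p = 0.0208), against 2.9% of all genes called lower. Deptor was at −0.38 without NTG 2.

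**Figure D5:**
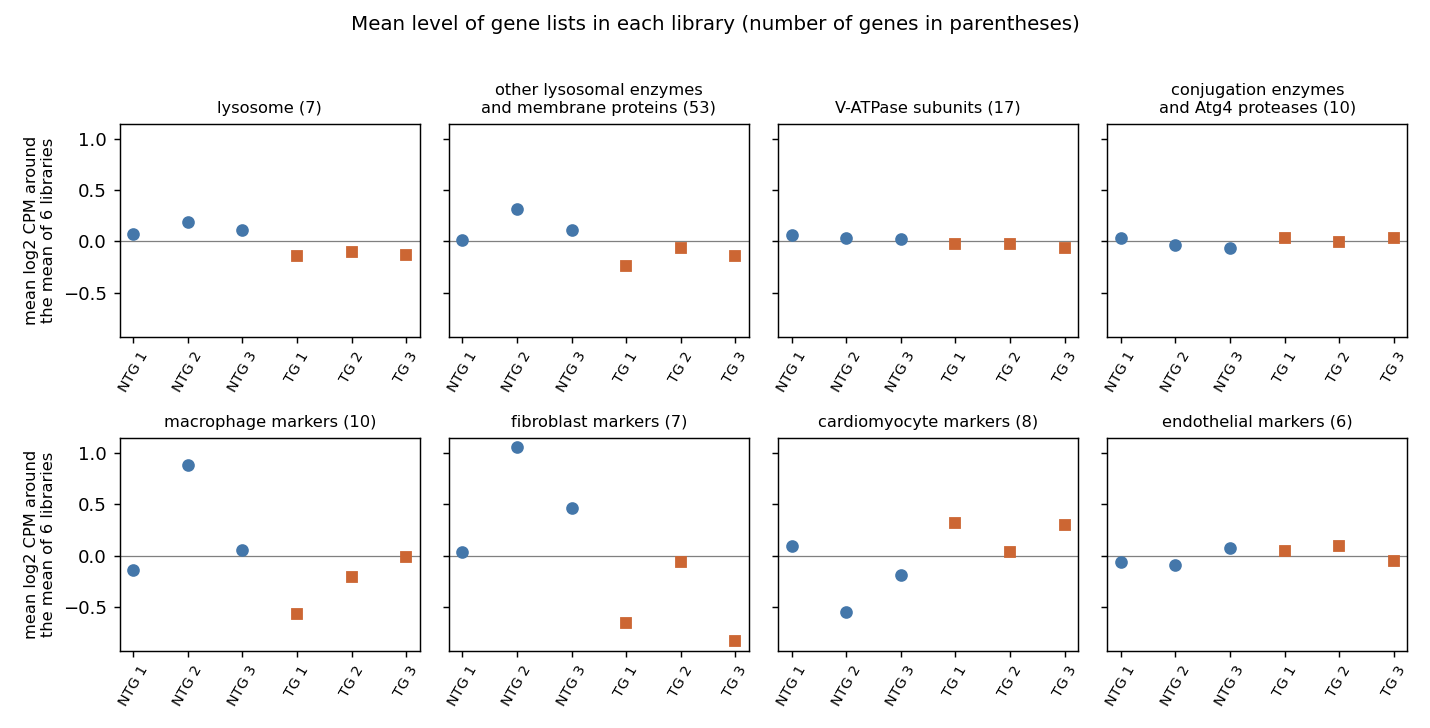
Mean log2 CPM of gene lists in each library, centred on the mean of the 6 libraries, for NTG (blue circles) and TG (orange squares). All panels share 1 vertical axis, and the number of genes is in parentheses. The lysosome role and the 53 other lysosomal genes lie above 0 in all NTG and below 0 in all TG libraries. The V-ATPase subunits, closer to the mean, and the fibroblast markers divide in the same way. The conjugation role stays near 0, and the macrophage and fibroblast markers are highest in NTG 2.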

How the data were processed

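RNA-seq of 6 left ventricles (3 TG, 3 NTG) was analysed. The values that the authors deposited are raw counts per gene, 1 column per library, without normalization. Per the labels and the methods of the study, poly-A libraries without a stated strand marking were sequenced on an Illumina Novaseq, and reads were mapped (HISAT2 in the submitters' processing notes), assembled with StringTie and counted with featureCounts. The strand setting and the handling of multiply mapped reads are not given in the sources used here, so overlapping genes on opposite strands are uncertain. The notes name the human build GRCh38, whereas 54495 of the 54532 rows are genes of GENCODE mouse M21 (GRCm38), 98.3% of them at identical positions. Symbols turned into dates (27) were replaced from that annotation.

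TG was compared with NTG by edgeR 4.0.16 under R 4.3.3 (TMM, filterByExpr by group, robust quasi-likelihood fit) over all 6 libraries without covariates, with Benjamini-Hochberg adjustment over 14774 genes. A call required an adjusted p below 0.05 together with a log2 fold change beyond ±0.5. CPM are TMM-scaled, standard errors were derived from the F statistic, and list means used a prior count of 2. No pair of libraries within a group agreed within sampling noise (chi-square per gene 15.5 to 71.2). Tests were first tested on simulated counts. Each library's value is given for members with an unadjusted p under 0.05 and the member with the smallest p in each of 8 roles, and for further members where useful, chosen after their values were seen. From each other list, the 3 genes with the smallest p are named, except 1 that is not reported here. Members and lists were chosen with earlier results of these data known. The 25 alternatives comprised other scalings (RLE, upper quartile, library size alone), filters, protein-coding genes only, robust = FALSE, the likelihood-ratio test, DESeq2 1.42.0, limma 3.58.1 (voom), a gene length offset, a replicate block, and each library left out in edgeR and DESeq2.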

Additional observations from a re-analysis of the deposited data

How the results depend on the processing

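The 12 members named by the rule on p-values kept the sign of their log2 fold change under all 25 alternatives, but the calls depended on the setting. Of all 44 members, 27 kept it and 17 changed it under at least 1 alternative, and each of these 17 had a log2 fold change of at most 0.09 in size. Over all genes, edgeR called 0 higher and 0 lower. With no low-count filter it called 116 higher and 116 lower, with the likelihood-ratio test 206 and 339, and DESeq2 called 228 and 355. Leaving out 1 library in turn, in edgeR or DESeq2, gave 0 to 896 genes higher and 0 to 870 lower, with the highest counts without NTG 1. Called members, 0 in each direction, became 1 lower (Ctsb) under DESeq2, and 0 to 2 higher and 0 to 2 lower with 1 library left out. Without NTG 1, edgeR called Ctsb, and DESeq2 called Ctsb, Map1lc3a and Atg4d, against 6.06% of all genes higher and 5.89% lower in DESeq2. Without TG 2, DESeq2 called these 3 and Ctsl, against 1.97% of all genes higher and 3.29% lower. Members at an unadjusted p under 0.05, 3 higher and 6 lower, became 3 lower under the likelihood-ratio test (9.5% of all genes), and 1 to 5 higher and 2 to 6 lower with 1 library left out, where all genes ran from 4.74% to 13.8% higher and 4.67% to 13.4% lower. Their median of −0.018 was −0.10 with library size alone, which set the median of all genes at −0.093, and 0.016 with a gene length offset. With 1 library left out it ran from −0.056 to 0.0030. The median of the mTORC1 list, 0.09, was at 0.00 in size with library size alone and 0.03 with the length offset. That of the V-ATPase subunits, −0.07, ran from −0.15 to −0.04 over all alternatives.

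Replicate numbers did not pair the hearts: the correlations of same-numbered deviations were 0.0807, 0.173 and −0.252. With a replicate block, 84 genes were called higher and 147 lower, among them 1 member, Atg4d, higher (0.59, adjusted p = 0.0422, edgeR). With the block and a length offset together the counts were 109 and 135, again with Atg4d as 1 member, 6 members were higher at an unadjusted p under 0.05, where 12% of all genes were, and the member median was 0.016. Depth limits the low members most, such as Atg4c with under 9 CPM in each library.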
